A study of Mus musculus with 12 samples.

Results

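The expression of 10 genes of the neutrophil granules and cytoplasm was followed across the annulus fibrosus (AF), the fibrous outer ring of the intervertebral disc, and the nucleus pulposus (NP), its proteoglycan-rich core. They are 4 genes of the primary (azurophilic) granules, Mpo, Elane, Ctsg and Prtn3, and 6 genes switched on later in neutrophil maturation, Camp, Ngp, Lcn2, Ltf, S100a8 and S100a9. They were chosen by name from the array's gene table. All 10 were found, each with 1 probe set, out of 19505 named genes. There were 4 groups of 3 samples: each tissue from wild-type (WT) and from TonEBP +/- mice. TonEBP (gene Nfat5) is a transcription factor by which cells adapt to high osmolarity, and TonEBP +/- mice are haploinsufficient for it. All mice were on the C57BL/6 background and 12 months old, and each sample was the tissue of the lumbar discs of a single animal, pooled before RNA extraction and hybridized to a Clariom S Mouse array. The labels name no cell type to which the allele is limited and do not tie an AF sample to an NP sample of the same mouse.

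Neutrophils mature in bone marrow and fill their granules in sequence. Promyelocytes make the primary granules, loaded with myeloperoxidase and serine proteases; myelocytes and metamyelocytes then make the secondary granules, with lactoferrin, lipocalin 2 and cathelicidin; transcripts of the cytoplasmic calgranulins accumulate later still and persist in mature cells, in which primary granule transcripts have been shut off. A granule's content is set by when its genes are transcribed, so primary granule transcripts mark immature precursors, and later ones mark more mature cells too. The healthy disc core has no vessels, while the endplates beside it border on marrow.

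Values are RMA signals on the log2 scale, and a change of 1 log2 is a 2-fold change. Probe sets respond differently, so each gene is compared with itself between arrays and not with another gene. The median signal per AF array lay between 7.43 and 7.64 log2, and per NP array between 6.82 and 6.87. A signal was taken as above background where it passed the 95th percentile of the array's 23 background probe sets, which lay at 7.11 to 7.98. Each array also has a highest value that several probe sets share, 19.86 to 19.93; between 15 and 27 transcript clusters sat at it on AF arrays and between 3 and 5 on NP arrays. Replicates correlated at 0.942 or above within each group, and AF array 3 of TonEBP +/- had the widest spread of the AF arrays (interquartile range 3.11 log2 against 2.36 to 2.66). The tissue labels matched defining markers: the NP keratin Krt8 lay at 16.86 to 17.34 in NP and 7.04 to 10.34 in AF, and the type I collagen chain Col1a1 at 7.87 to 8.78 in NP and 10.92 to 17.65 in AF. Nfat5 itself ranged from 7.70 to 9.93 in AF of WT and 8.74 to 8.94 in AF of TonEBP +/-, and from 8.34 to 9.12 and 9.06 to 9.62 in NP, and TonEBP +/- arrays were not the lower ones in either tissue by these probes. Where the probes lie relative to the altered stretch is not given in the sources used here, so they check nothing.

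Of the 10 genes, 7 were above background on all 12 arrays. Ctsg, Prtn3 and Camp were so on 9 arrays, the exceptions being all 3 NP arrays of TonEBP +/- mice, where their fitted changes are therefore limited by the background and are also given as lower bounds. At the other end, Ngp and Lcn2 sat at the array maximum on all 6 AF arrays, so that no change between genotypes can be read for them in AF. S100a8 and S100a9 sat at the maximum on AF array 1 of TonEBP +/- and within 0.36 log2 of it on the other 5 AF arrays. Mpo came to within 0.98 to 2.64 log2 of it in AF. On NP arrays no member was closer than 1.90 log2 to the maximum. Of the 6 later genes, only Camp and Ltf had room to move on AF arrays.

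**Figure D1:**
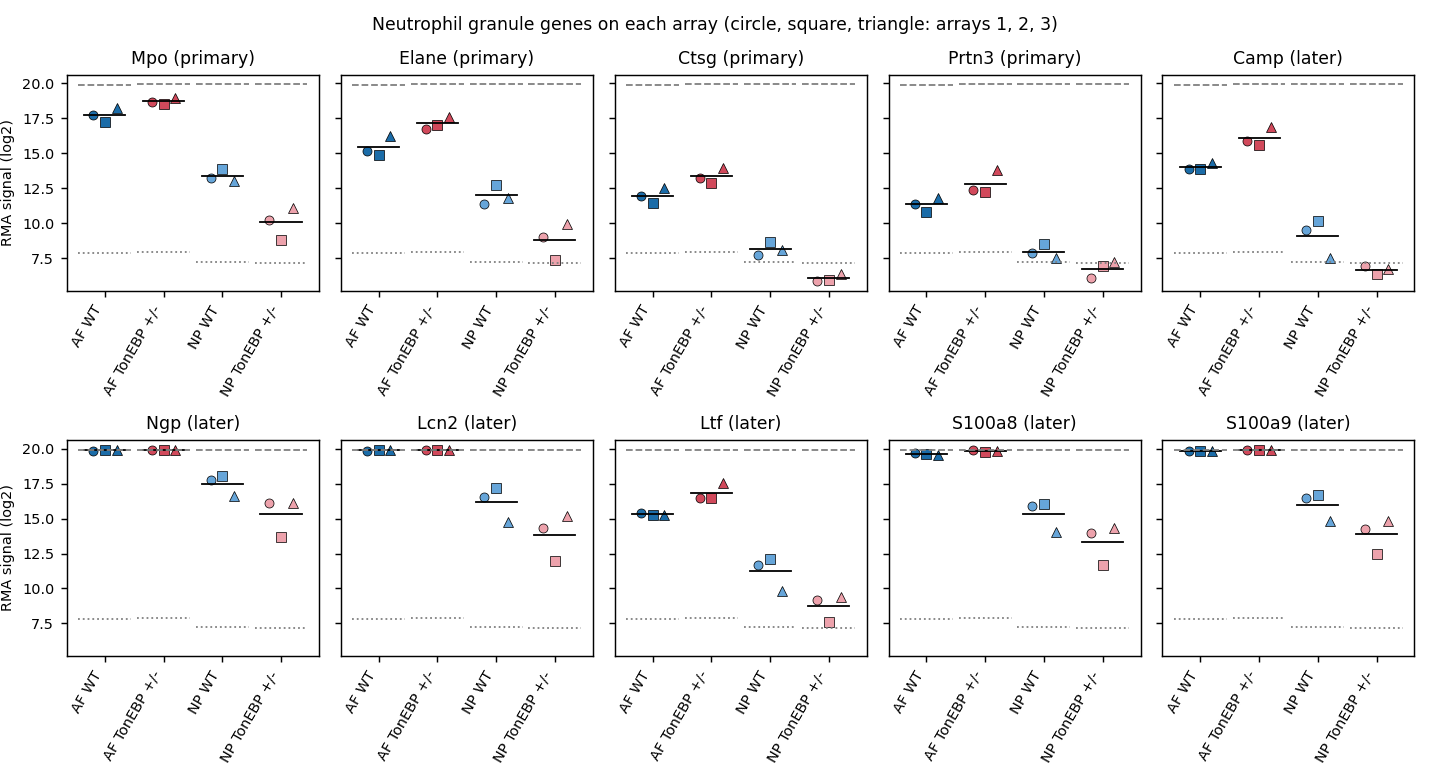
RMA signal (log2, vertical axis) of each of the 10 genes on the 12 arrays, by group; circles, squares and triangles are arrays 1, 2 and 3 of a group, black bars group means, dotted lines the mean background level and dashed lines the mean array maximum. All 10 genes are higher in AF than in NP; Ngp and Lcn2 lie on the maximum in AF, and Ctsg, Prtn3 and Camp lie below or at background in NP of TonEBP +/- mice.

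The sequences from 250 bases before to 50 bases after each gene's start, from RefSeq on build GRCm38.p6, are shown for 3 primary granule genes and 3 later genes, because they differ by stage in the letters searched for. Capitals mark matches on either strand to the C/EBP pattern TTNNGNAA and to GAGGAA, the letters used for PU.1. They also mark TGGAAA, a core of the TonEBP site, and TATAAA, the letters used for the TATA box. Matches to TATAAA began at -30 bases from the start in S100a8, at 0 in S100a9 and, on the opposite strand, at -237 in Ctsg. C/EBP factors and PU.1 are the main families of transcription factors of granulocyte development.
Mpo, chr11:87793534-87793833, plus strand: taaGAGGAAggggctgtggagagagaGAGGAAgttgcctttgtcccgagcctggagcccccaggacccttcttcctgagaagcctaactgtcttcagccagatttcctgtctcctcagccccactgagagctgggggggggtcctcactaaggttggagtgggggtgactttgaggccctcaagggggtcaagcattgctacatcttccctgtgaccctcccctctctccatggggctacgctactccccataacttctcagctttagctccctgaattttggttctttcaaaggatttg
Elane, chr10:79886062-79886361, plus strand: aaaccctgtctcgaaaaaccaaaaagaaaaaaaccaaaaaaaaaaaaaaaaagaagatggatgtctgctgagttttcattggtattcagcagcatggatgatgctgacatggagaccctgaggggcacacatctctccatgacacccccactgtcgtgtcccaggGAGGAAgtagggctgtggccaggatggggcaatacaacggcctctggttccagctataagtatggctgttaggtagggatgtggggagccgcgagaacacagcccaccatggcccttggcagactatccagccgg
Prtn3, chr10:79879417-79879716, plus strand: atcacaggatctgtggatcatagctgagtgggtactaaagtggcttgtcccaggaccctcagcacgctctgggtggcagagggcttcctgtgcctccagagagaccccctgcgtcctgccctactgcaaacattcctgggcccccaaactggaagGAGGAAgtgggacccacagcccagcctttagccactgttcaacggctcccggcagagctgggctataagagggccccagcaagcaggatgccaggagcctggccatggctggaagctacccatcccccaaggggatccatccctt
Ngp, chr9:110419558-110419857, plus strand: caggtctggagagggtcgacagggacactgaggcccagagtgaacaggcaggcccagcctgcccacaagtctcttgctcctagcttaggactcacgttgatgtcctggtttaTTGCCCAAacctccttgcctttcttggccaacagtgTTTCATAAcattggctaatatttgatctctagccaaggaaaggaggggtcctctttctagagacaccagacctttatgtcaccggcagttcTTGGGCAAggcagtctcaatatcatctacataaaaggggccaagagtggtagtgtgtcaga
Ltf, chr9:111019042-111019341, plus strand: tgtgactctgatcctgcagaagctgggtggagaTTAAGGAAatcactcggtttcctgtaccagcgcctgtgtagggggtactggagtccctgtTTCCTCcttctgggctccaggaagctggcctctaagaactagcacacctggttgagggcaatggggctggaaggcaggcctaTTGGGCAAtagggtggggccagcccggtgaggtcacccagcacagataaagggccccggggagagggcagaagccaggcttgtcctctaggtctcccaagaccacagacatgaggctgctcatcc
S100a9, chr3:90695672-90695971, minus strand: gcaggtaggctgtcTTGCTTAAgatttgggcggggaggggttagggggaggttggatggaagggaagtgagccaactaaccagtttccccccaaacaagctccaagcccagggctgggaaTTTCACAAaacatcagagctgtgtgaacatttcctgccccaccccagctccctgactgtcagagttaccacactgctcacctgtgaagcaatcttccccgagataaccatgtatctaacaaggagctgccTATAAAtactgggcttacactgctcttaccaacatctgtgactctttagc
GAGGAA, in that orientation, was found in all 4 primary granule promoters and, on the opposite strand, in 3 of 6 later ones (Lcn2, Ltf and S100a8). Of the 32851 promoters of that length, 28.3% had it on either strand. No share was computed by strand, so the orientations have no matching comparison. The C/EBP pattern was found in 0 of 4 primary promoters and in 5 of 6 later ones, all but Camp, against 40.7%. TATAAA was in 3 of 10 (Ctsg, S100a8 and S100a9; 13.6% of all), and TGGAAA in the Lcn2 promoter alone of the 10 (21.4% of all). No matches overlapped each other. A match describes these letters in this window and is not a measured binding site.

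In NP of TonEBP +/- mice, 3 of the 4 primary granule genes, Mpo, Elane and Ctsg, fell, and 0 of the 6 later genes passed the test (limma fitted to all 12 arrays, Benjamini-Hochberg adjusted p under 0.05). Of all 22206 transcript clusters, 0.113% were called lower in this comparison, and no cluster was called higher. All 10 genes had lower means in TonEBP +/- mice, by 1.21 to 3.33 log2; the median of the 4 primary genes was -2.66, of the 6 later genes -2.26, and of all clusters 0.01. In these bulk samples fewer cells of a type and less RNA per cell cannot be told apart. From the 6 NP arrays alone, none of the 10 was called and no cluster at all; in the fit to all 12 arrays 827 clusters had an unadjusted p under 0.05.

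Mpo, the myeloperoxidase that turns hydrogen peroxide into hypochlorous acid, read 13.26, 13.87 and 13.05 on the 3 NP arrays of WT mice and 10.26, 8.82 and 11.11 on those of TonEBP +/- mice. Every TonEBP +/- array lay below every WT array, and the WT arrays were close together. The means were 13.39 ± 0.43 and 10.06 ± 1.16 (SD, n = 3 each), a fall of 10.1-fold (log2 -3.33, SE 0.432, limma adjusted p = 0.0079). It was called in each of 12 fits that left out 1 array. Elane, neutrophil elastase, read 11.38, 12.76 and 11.81 in WT and 9.03, 7.38 and 9.92 in TonEBP +/- mice. The groups again did not overlap, with array 2 of TonEBP +/- the lowest and close to background. Elane fell 9.25-fold (log2 -3.21, SE 0.527, limma adjusted p = 0.0274), and it was called in 7 of 12 fits with 1 array left out.

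Ctsg, the granule protease cathepsin G, read 7.73, 8.68 and 8.06 in WT and 5.88, 5.91 and 6.36 in TonEBP +/- mice, where no array was above background. It was lower by at least 1.97-fold against the background level (fitted log2 -2.11, SE 0.333, limma adjusted p = 0.0208; called in 9 of 12 fits with 1 array left out). Prtn3, proteinase 3, a close relative of elastase whose gene lies next to Elane on chromosome 10, read 7.89, 8.49 and 7.49 in WT and 6.10, 6.92 and 7.21 in TonEBP +/- mice. These groups did not overlap either, but the WT arrays were little above background, and the difference did not pass (at least 1.71-fold lower, fitted log2 -1.21, SE 0.410, adjusted p = 0.803). Elane was not called without AF array 1 of TonEBP +/-, NP WT arrays 1 or 2 or NP arrays 1 or 2 of TonEBP +/- (adjusted p from 0.0539 to 0.268), nor Ctsg without NP WT array 2 or NP arrays 1 or 2 of TonEBP +/- (0.0878 to 0.213).

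The later genes had changes of -2.47 to -2.02 log2, against -3.33 to -1.21 for the primary genes. Their spread was wider on the WT arrays, with SDs of 0.75 to 1.37 against 0.43 to 0.70. On the TonEBP +/- arrays the SDs of the stages overlapped. Camp, the cathelicidin antimicrobial peptide, read 9.48, 10.15 and 7.52 in NP of WT and 6.92, 6.34 and 6.71 in TonEBP +/- mice, the latter all below background. It was at least 3.65-fold lower (fitted log2 -2.39, SE 0.492, adjusted p = 0.0844). Ltf, the iron-binding lactoferrin, read 11.68, 12.11 and 9.85 in WT and 9.17, 7.63 and 9.42 in TonEBP +/- mice, a difference of -2.47 log2 (SE 0.516, adjusted p = 0.0922). For both genes WT array 3 was well below the other WT arrays, yet the groups did not overlap.

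Ngp, a granule protein of the cathelicidin family, read 17.78, 18.03 and 16.63 in WT and 16.14, 13.70 and 16.13 in TonEBP +/- mice (log2 -2.15, SE 0.498, adjusted p = 0.15). Lcn2, the siderophore-binding lipocalin 2, read 16.52, 17.19 and 14.78 in WT and 14.30, 11.96 and 15.15 in TonEBP +/- mice (-2.36, SE 0.628, adjusted p = 0.353). For Lcn2 the groups overlapped, since WT array 3 lay below TonEBP +/- array 3. S100a8 and S100a9, the pair of calcium-binding proteins that form calprotectin and are encoded side by side on chromosome 3, had similar courses. S100a8 read 15.91, 16.06 and 14.06 in WT and 13.93, 11.70 and 14.34 in TonEBP +/- mice (-2.02, SE 0.556, adjusted p = 0.427), with an overlap at WT array 3. S100a9 read 16.48, 16.66 and 14.86 and then 14.27, 12.49 and 14.83 (-2.13, SE 0.494, adjusted p = 0.15), and WT array 3 stood only just above TonEBP +/- array 3.

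Counted by gene, the NP groups did not overlap, with TonEBP +/- lower, for 4 of 4 primary and 4 of 6 later genes, as for 5.93% of all clusters. The stages stood apart on NP array 3 of WT mice. Ctsg and Prtn3 read 8.06 and 7.49 there, not far above that array's background of 7.11, which limits how low these genes could read. Relative to each gene's NP WT mean, the 4 primary genes lay at -0.10 to -0.47 log2 on that array, whereas all 6 later genes lay at -0.85 to -1.53. On WT arrays 1 and 2 the later genes lay at 0.30 to 1.10. The range over the 3 NP WT arrays was accordingly 0.82 to 1.37 log2 for the primary genes and 1.40 to 2.64 for the later ones. TonEBP +/- array 2 was the lowest array for all 6 later genes and for Mpo and Elane.

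**Figure D2:**
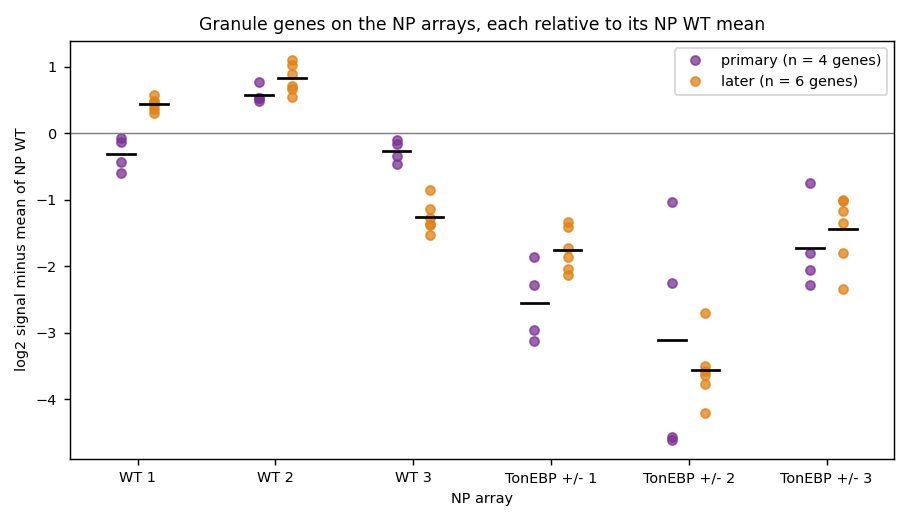
Log2 signal of each gene on the 6 NP arrays minus that gene's mean over the 3 NP WT arrays (vertical axis), purple for the 4 primary granule genes and orange for the 6 later genes, with black bars for the stage means. On WT array 3 the primary genes stay within 0.47 log2 of their WT mean while the later genes lie 0.85 to 1.53 below theirs.

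Left out of the fit, NP array 3 of WT mice changed the count from 3 to 9 of 10 members called, all lower, with 0.351% of all clusters called lower. All 6 later genes then passed: Camp at -3.16 log2 (SE 0.357, limma adjusted p = 0.00138), Ltf at -3.16 (adjusted p = 0.00524), S100a9 at -2.71 (0.0153), S100a8 at -2.66 (0.0424), Lcn2 at -3.05 (0.0433) and Ngp at -2.58 (0.05, just under the threshold before rounding). For the last 4 the fitted spread includes AF arrays at or near the maximum, which lowers it. Over all 3 arrays a group, the SD of Lcn2 was 0.02 in AF and 1.24 in NP of WT mice. In TonEBP +/- mice it was 0.01 and 1.65. The primary genes moved little, with Mpo at -3.50 (0.00497), Elane at -3.29 (0.0260), Ctsg at -2.16 (0.0208) and Prtn3, again not called, at -1.45 (0.516). Without NP WT array 2 or NP array 1 or 2 of TonEBP +/-, in contrast, 1 member was called, Mpo. Over all clusters, 6, 16 and 2 were called in these fits. Which members passed thus changed with any of these 4 arrays, and the difference between the stages themselves was not tested. The labels give nothing that sets NP WT array 3 apart.

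The primary genes were also set against the later ones within each array, as the mean log2 signal of the 4 minus that of the 6. Only shifts of this difference between arrays can be read, since the probe sets differ. On the WT arrays of NP it read -4.58, -4.08 and -2.85, and on the others -4.64, -3.38 and -4.11. The groups interleaved, with means of -3.84 ± 0.89 and -4.05 ± 0.63 (SD, n = 3), so the shift of -0.21 was smaller than the spread between arrays; it was 0.28 without NP WT array 3. In terms of the separate means, the primary genes went from 10.37 ± 0.50 to 7.91 ± 0.70 and the later ones from 14.21 ± 1.11 to 11.95 ± 1.15. Ctsg, Prtn3 and Camp in these means are held up by background in NP of TonEBP +/- mice. With the 7 genes above background on every array (Mpo and Elane against Ngp, Lcn2, Ltf, S100a8 and S100a9, a choice made after seeing the data), the WT arrays gave -3.35, -2.70 and -1.60 and the TonEBP +/- arrays -3.92, -3.40 and -3.46. On these genes every TonEBP +/- array lay below every WT array, by a mean of 1.04, although WT array 1 was only just above.

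In AF of TonEBP +/- mice the direction was the opposite. Ctsg, Prtn3 and Camp rose, 3 of the 10 members, and none fell (limma, adjusted p under 0.05); of all clusters 2.76% were called higher. In all 10 genes every TonEBP +/- array lay above every WT array, as in 10% of all clusters (groups not overlapping, higher), but for Ngp, Lcn2, S100a8 and S100a9 this is no measure of their level, since their values there are those of the array maxima or just below. The median change was 1.43 log2 for the 4 primary genes and 0.16 for the 6 later ones, against -0.04 for all clusters. From the 6 AF arrays alone no member was called (limma, 3 clusters in all), and without AF array 3 of TonEBP +/- no member was called either (limma, 0.144% of all clusters called higher).

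Camp read 13.86, 13.91 and 14.27 in AF of WT and 15.89, 15.60 and 16.88 in TonEBP +/- mice. It rose 4.32-fold (log2 2.11, SE 0.492, limma adjusted p = 0.026) and was called in 7 of 12 fits with 1 array left out. Ltf, the other later gene with room to rise, read 15.38, 15.28 and 15.25 in WT, a spread of only 0.07 (SD), and 16.48, 16.46 and 17.52 in TonEBP +/- mice (1.52, SE 0.516, adjusted p = 0.0893). Both later genes that could be read in AF thus had higher means in TonEBP +/- mice by at least as much as the primary genes' median.

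Among the primary genes, Ctsg read 11.92, 11.42 and 12.53 in AF of WT and 13.23, 12.88 and 13.92 in TonEBP +/- mice. It rose 2.61-fold (log2 1.38, SE 0.333, limma adjusted p = 0.0285; called in 8 of 12 fits with 1 array left out). Prtn3 read 11.40, 10.83 and 11.78 and then 12.40, 12.21 and 13.81, a rise of 2.77-fold (1.47, SE 0.410, adjusted p = 0.0458; called in 3 of 12). Its highest value was on AF array 3 of TonEBP +/-, and without that array the change was 0.97. Elane read 15.17, 14.88 and 16.26 and then 16.76, 17.01 and 17.63 (1.70, SE 0.527, adjusted p = 0.0658). Mpo read 17.72, 17.27 and 18.23 and then 18.70, 18.52 and 18.95 (0.98, SE 0.432, adjusted p = 0.183), within 1.41 log2 of the array maximum in TonEBP +/- mice.

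The 4 genes near the maximum in AF have values but no readable change. Ngp and Lcn2 had identical readings on every AF array, 19.86, 19.91 and 19.88 in WT and 19.92, 19.93 and 19.93 in TonEBP +/- mice, because both equalled each array's maximum. S100a9 lay at 19.84, 19.81 and 19.83 and then 19.92, 19.91 and 19.91, and S100a8 at 19.68, 19.61 and 19.52 and then 19.92, 19.75 and 19.87. The primary-minus-later difference in AF, -4.03, -4.47 and -3.40 in WT and -3.40, -3.44 and -2.93 in TonEBP +/- mice, includes these genes. Its mean shift was 0.71, and -0.43 with Camp and Ltf as the only later genes, so its direction depends on whether genes at the maximum are counted.

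**Figure D3:**
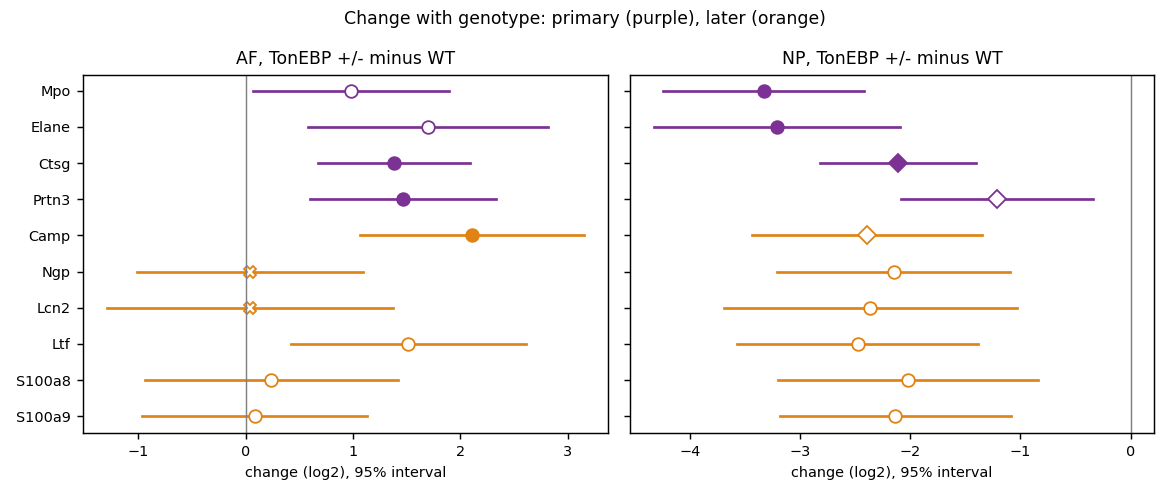
Fitted change in log2 signal from WT to TonEBP +/- mice (horizontal axis) with its 95% confidence interval for each gene, in AF (left) and NP (right); purple marks primary and orange later genes, filled symbols those with adjusted p under 0.05, diamonds genes above background on no TonEBP +/- array, and crosses genes at the array maximum on all 6 arrays. All readable AF changes are above 0 and all NP changes below 0; the largest are Camp in AF (2.11) and Mpo in NP (-3.33).

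The genotype effect in NP was tested against that in AF by an interaction term. It was called, in the negative direction, for 6 of 10 members, as for 0.766% of all clusters: the 4 primary genes, Camp and Ltf. The term was -4.31 for Mpo (SE 0.611, limma adjusted p = 0.00872), -4.91 for Elane (SE 0.746, 0.0109), -3.49 for Ctsg (SE 0.472, 0.00687), -2.68 for Prtn3 (SE 0.580, 0.0415), -4.50 for Camp (SE 0.696, 0.0109) and -3.99 for Ltf (SE 0.729, 0.0192). Ctsg, Prtn3 and Camp were below background in NP of TonEBP +/- mice. Mpo, Elane, Ctsg and Camp kept the call in all 12 fits with 1 array left out, Ltf in 7 (adjusted p up to 0.0709, without NP WT array 2) and Prtn3 in 2 (up to 0.135, without the same array). For Ngp, Lcn2, S100a8 and S100a9 the term was -2.19 to -2.40 with adjusted p of 0.149 to 0.216, and its AF side is fixed by the maximum.

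Between the tissues, all 10 genes were lower in NP than in AF in both genotypes, in every fit that was run. In WT mice 56.1% of all clusters were called lower in NP, and in TonEBP +/- mice 54.4%, so the count itself sets the members little apart. The median change over all clusters was -0.84 log2 in WT and -0.75 in TonEBP +/- mice. Whether AF and NP arrays were normalized together is not given in the sources used here, so the size of every difference between the tissues depends on their scaling. With each array's median subtracted, the members' differences ran from -1.67 (Ngp) to -4.22 (Camp) in WT and from -3.91 (Ngp) to -8.78 (Camp) in TonEBP +/- mice, all still called. Among the primary genes the change in WT was -4.35 for Mpo, -3.80 for Ctsg, -3.45 for Elane and -3.38 for Prtn3, and among the later genes -4.96 for Camp and -4.09 for Ltf (limma adjusted p from 1.42e-07 to 2.72e-05 for these 6 genes). S100a8 and S100a9 differed by -4.26 and -3.83, with AF values within 0.36 log2 of the maximum, which limits these differences too. Lcn2 and Ngp, at the maximum in AF, were lower by at least 13.2-fold and 5.31-fold. In TonEBP +/- mice the changes were -8.66 for Mpo, -8.36 for Elane and -8.08 for Ltf (adjusted p from 2.06e-10 to 2.51e-09). S100a8 and S100a9, whose AF values were at or within 0.18 log2 of the maximum, differed by -6.52 and -6.05, which the maximum limits. Ctsg, Prtn3 and Camp were lower by at least 71.6-, 49.4- and 493-fold against background, and Lcn2 and Ngp by at least 69.6- and 24.2-fold. These comparisons use the same arrays as the genotype comparisons. For Mpo, Elane, Ctsg, Prtn3, Camp and Ltf the order of the 4 group means was AF of TonEBP +/-, AF of WT, NP of WT, NP of TonEBP +/-, with neighbours not called as different for Mpo, Elane and Ltf in AF and for Prtn3, Camp and Ltf in NP.

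Other genes of the same lineage, from lists drawn up beside the members, were also described. Of 14 further primary granule and promyelocyte genes, 7 rose in AF and none fell (median 0.94 log2). Among them were Srgn, the proteoglycan core serglycin that packs granule proteases (1.79), Ctsc, the dipeptidyl peptidase that activates them (1.75), Ms4a3, a membrane protein of granulocyte precursors (1.69), and the elastase inhibitor Serpinb1a (1.66). Without AF array 3 of TonEBP +/-, 0 of the 14 were called in AF, as were 1 of the 19 secondary and tertiary and 0 of the 19 mature neutrophil genes below. In NP 0 of the 14 passed, with a median of -0.28, and 5 of the 14 were above background on no NP array. Between the tissues in WT mice, 10 of the 14 were called lower in NP, as were 56.1% of all clusters, and 2 higher. The median thus mixes genes with and without the members' course between the tissues. The NP groups did not overlap for 4 genes lower in TonEBP +/- mice, as for 5.93% of all clusters, and for 1 higher. Plac8, among the 4, read 9.42, 10.19 and 8.60 in NP of WT and 7.54, 7.37 and 8.07 in TonEBP +/- mice. Serpinb1a, another, read 10.31, 11.23 and 9.65 and then 8.55, 8.70 and 9.19. Ms4a3 there went from 7.42, 8.33 and 7.73 in WT to 5.83, 6.19 and 7.01 in TonEBP +/- mice, the latter all below background. Of the 19 measured secondary and tertiary granule genes, 8 rose in AF (median 1.47), among them annexin A1, Anxa1 (1.91), haptoglobin, Hp (1.80), and the peptidoglycan recognition protein Pglyrp1 (1.68).

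In NP, 2 of these 19 fell, Lyz2, lysozyme (log2 -2.54, SE 0.425, limma adjusted p = 0.0289), and Cybb, the membrane subunit of the phagocyte oxidase (-2.62, SE 0.446, 0.0324), with a list median of -1.08. Lyz2 read 13.52, 13.23 and 12.16 in WT and 11.28, 9.29 and 10.72 in TonEBP +/- mice, so that here too WT array 3 was the lowest of the WT arrays. The chitinase-like Chil3 was at -2.67 (adjusted p = 0.0656). Without NP WT array 3, 5 of the 19 were called lower and the median was -1.54. Mature neutrophil receptors and mediators had 4 of 19 higher in AF (the integrin chains Itgam at 1.87 and Itgb2 at 1.84, the Fc receptor Fcgr3 at 1.53, and Wfdc21 at 1.62; median 1.08) and 0 of 19 in NP (median -0.93; 2 without NP WT array 3).

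Among 11 transcription factors of granulocyte development, Cebpe, which drives secondary granule genes, rose in AF by at least 1.19 log2 against background, and 0 passed in NP, where 2 had higher and 9 lower means in TonEBP +/- mice (median -0.32). The factor with the lowest change there, Spi1, the gene of PU.1, went from 13.74, 13.66 and 11.78 in WT to 11.43, 9.73 and 11.73 in TonEBP +/- mice (-2.09, adjusted p = 0.207), again with WT array 3 beside the TonEBP +/- arrays. Myb, a factor of early precursors, read 7.81, 8.40 and 8.19 and then 6.25, 5.77 and 6.68 in NP, the latter all below background (adjusted p = 0.0947), and WT array 3 was not low. Of 6 measured stem and progenitor markers, 0 passed in AF or NP.

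**Figure D4:**
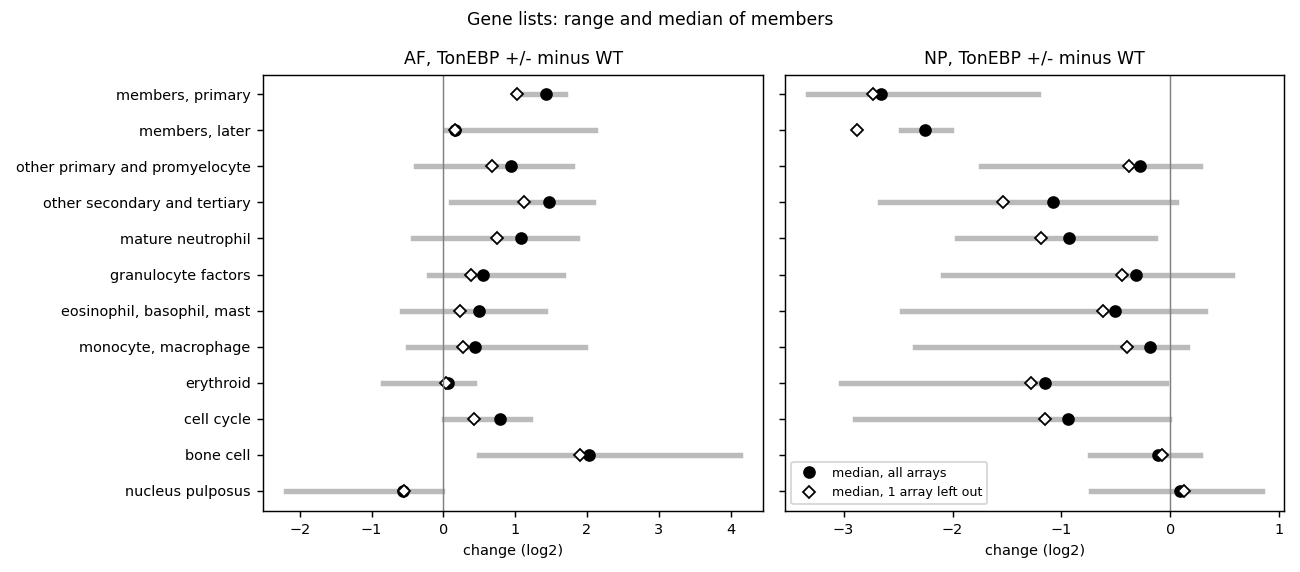
Change in log2 signal from WT to TonEBP +/- mice (horizontal axis) over the members of 12 gene lists in AF (left) and NP (right); grey bars run from the lowest to the highest member, filled circles are medians, and open diamonds medians without AF array 3 of TonEBP +/- (left) or NP array 3 of WT (right). The granule members lie above 0 in AF and below 0 in NP, and leaving out the NP array moves the later members' median from -2.26 to -2.88 and the primary members' from -2.66 to -2.73.

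Markers of other cell types moved with some of these results, and their part in them was not tested. In NP, erythroid markers had 2 of 10 measured genes called lower, against 0.113% of all clusters. These were the anion exchanger Slc4a1 (-3.03) and the erythroid membrane protein Ermap (-0.40 or lower against background). The median of the erythroid markers was -1.15. Their mean level ran from 8.57 to 9.42 on WT arrays and 7.57 to 7.82 on TonEBP +/- arrays. By the count used for the members, the NP groups did not overlap, with TonEBP +/- lower, for 8 of 10 erythroid markers, as for 5.93% of all clusters. Cell cycle genes had 1 of 11 called lower in NP, the proliferation marker Mki67 (-2.90), with mean levels of 7.05 to 7.87 and 6.27 to 6.67. For 7 of 11 the NP groups did not overlap, with TonEBP +/- lower. Of 13 monocyte and macrophage markers, Ly6c2, a surface antigen of monocytes and myeloid precursors, fell in NP (-2.34), with mean levels of 7.16 to 7.61 and 6.80 to 7.07, and 8 of the 13 were never above background in NP. Eosinophil, basophil and mast cell markers had 0 of 14 called in either tissue, and in NP 5 had higher and 9 lower means in TonEBP +/- mice, with a median of -0.50. That median includes 8 of 14 never above background in NP. The eosinophil granule gene Prg2 read 10.81, 10.72 and 9.56 in NP of WT and 7.31, 6.80 and 9.59 in TonEBP +/- mice. Ear6 read 9.61, 10.08 and 9.14 and then 6.63, 6.46 and 9.40. For both, the groups overlapped at array 3. B and plasma cell markers had mean levels of 5.80 to 5.86 and 5.22 to 5.33 in NP, with 0 called and 7 of 9 never above background in NP. NP WT array 3 had the lowest mean of the NP WT arrays for cell cycle genes (7.43, 7.87 and 7.05) and erythroid markers (8.74, 9.42 and 8.57). It was also the lowest for the further primary granule and promyelocyte genes (9.41, 9.57 and 9.26). For the stem and progenitor markers (6.61, 6.89 and 6.85) and the B and plasma cell markers it was not the lowest.

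In AF, bone cell markers moved with the granule genes: 8 of 10 rose, against 2.76% of all clusters. The bone cell markers' mean level was 8.13 to 9.92 on WT and 10.92 to 12.14 on TonEBP +/- arrays. Among them were Ibsp, bone sialoprotein (3.00), and the osteoclast enzyme Acp5 (4.13). Without AF array 3 of TonEBP +/-, 2 of the 10 were called. Cell cycle genes had 2 of 11 higher, Rrm2 and Bub1, and monocyte and macrophage markers 2 of 13, Csf1r and Ly6c2. Erythroid markers had 0 of 10 called in AF, with mean levels of 11.49 to 11.74 on WT and 11.30 to 12.04 on TonEBP +/- arrays. Lcn2, S100a8 and S100a9 can also be made by surface epithelium. Of 11 keratinocyte and epithelium markers 10 were above background on no array in AF and in NP each, and 0 were called. Which cells the Lcn2, S100a8 and S100a9 signals came from was not tested. B and plasma cell markers had 1 of 9 higher in AF. Nucleus pulposus markers had 2 of 11 lower in AF, and annulus fibrosus markers 3 of 11 higher and 1 lower, with 0 of either list called in NP. Skeletal muscle markers had 0 of 8 called, and T and NK cell markers 0 of 10, in either genotype comparison.

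The genes whose course over the 12 arrays was closest to the members were sought among 9242 clusters with 1 symbol and above background on 6 or more arrays, by the root mean square difference after centring each on its mean in each tissue. Closest to the mean of the 4 primary genes were Atp8b4, a phospholipid-transporting ATPase (0.30 log2), Clec12a, an inhibitory lectin receptor of myeloid cells (0.30), Cyfip2 (0.36), Fermt3, the blood cell kindlin (0.37), and Ly6c2 (0.40). Closest to the mean of the 6 later genes were Spi1 (0.29), the chitinase-like Chil4 (0.32), the histone gene H2ac10 (0.32), Lyz2 (0.33) and Cybb (0.35). Atp8b4 read 7.65, 7.73 and 7.63 in NP of WT, little above background, and 5.42, 4.60 and 6.61 in TonEBP +/- mice, all below it. Chil4 read 9.38, 9.96 and 8.37 and then 7.77, 6.12 and 7.71, a course for which it was selected. The later genes' mean includes 4 genes at or near the maximum in AF. The genes beside the members on their chromosomes were not called in NP: 0 of 14 measured neighbours passed there, with changes of -0.71 to 0.44 log2. Of these, Nme6, Rtp3, Lpo and S100a7a were above background on 0 of 12 arrays. Plppr3, Ccrl2, Tspoap1, Mcpt8 and Pglyrp4 had NP means below background in both genotypes. For these neighbours a fall in NP could not have been read. In AF 1 of the 14 was called, Cdc25a, a cell cycle phosphatase beside Camp (1.45).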

How the data were processed

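The authors deposited RMA values on the log2 scale for every probe set, computed in Affymetrix Expression Console, per the submitters' processing notes; versions, settings and which arrays were normalized together are not given in the sources used here. RMA corrects background and equalizes signal distributions, which can compress changes at both ends of the scale. Of 28846 probe sets, 6640 controls were left out and 22206 transcript clusters tested; 2634 have no symbol in the array's gene table. A model with a mean for each of 4 groups was fitted to 12 arrays with limma 3.58.1 in R 4.3.3 (8 residual and 7.93 prior degrees of freedom, no intensity trend), and p-values were adjusted by Benjamini and Hochberg over all clusters. The members and the gene lists were chosen with earlier results of these data known. Members are always named. Named list genes were called in AF or NP, but not every called gene is named. The exceptions are the label checks and a few others (Spi1, Myb, Chil3, Plac8, Prg2 and Ear6) named after their values were seen. Where 0 of 3 arrays of a group were above background, a change is given as a bound against the array background; genes at the array maximum in both groups get none. The fitting code was tested on simulated data. Of 209 further listed genes, 22 have no cluster under their symbol and were not analysed here. Python 3.11.15 and matplotlib 3.10.9 served for the figures. Alternatives tried were array medians subtracted, quantile normalization, an intensity trend with robust spread, array weights, only the arrays compared, a filter on dim clusters, and each array left out. Arrays carry no read depth; their number, 3 per group, limits the precision.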

Additional observations from a re-analysis of the deposited data

Results flagged for a closer look

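For 6 of 10 members the genotype effect differed between the tissues by the interaction test of limma, in the negative direction as for 0.766% of all clusters. With 1 array left out, Prtn3 kept the call in 2 of 12 fits and Ltf in 7. The term, the NP effect minus the AF effect, was -4.31 log2 for Mpo (0.98 in AF, -3.33 in NP), -4.91 for Elane (1.70 and -3.21), -3.49 for Ctsg (1.38 and -2.11), -2.68 for Prtn3 (1.47 and -1.21), -4.50 for Camp (2.11 and -2.39) and -3.99 for Ltf (1.52 and -2.47). For Ctsg, Prtn3 and Camp the NP part is limited by the background. Bone cell markers, of which 8 of 10 rose in AF against 2.76% of all clusters, moved with the AF part. Erythroid markers moved with the NP part: 2 of 10 were called lower in NP, against 0.113% of all clusters. For 8 of 10 the NP groups did not overlap, with TonEBP +/- lower, as for 5.93% of all clusters. The role of bone cell and erythroid markers was not tested.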

How the results depend on the processing

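The genotype calls rest on few arrays and on a spread shared by AF and NP. For Ngp, Lcn2, S100a8 and S100a9, AF values at or near the maximum lower that spread, and with it their SEs and p-values in NP. With only the 6 arrays of a tissue, 0 members were called in AF and 0 in NP (limma; 3 and 0 of all clusters; in the full fit 5158 and 827 had an unadjusted p under 0.05). With 1 array left out, members called ranged from 0 to 3 in AF, from 1 to 9 in NP and from 4 to 7 for the interaction, and all 10 remained lower in NP than in AF. The count in AF was 0 without WT array 1 or 2 or TonEBP +/- array 1 or 3, and 1 without WT array 3. In NP it was 1 without TonEBP +/- array 1 or 2 or WT array 2. Over all clusters these ranges were 81 to 4029, 2 to 79, 22 to 1319, and 16298 to 17819 and 15198 to 16997 for NP against AF in WT and TonEBP +/-. Array weights gave 5 members in NP, and 2815, 82 and 875 clusters in AF, NP and the interaction; subtracting array medians gave 13 clusters in NP; the filter on dim clusters, which tests fewer, gave 9023 and 8694 clusters between the tissues, and quantile normalization 10866 in TonEBP +/- mice. The other causes were not tested. The primary-minus-later shift in AF was 1.38 with medians, -0.43 without later genes near the array maximum and 0.46 to 0.99 with 1 array left out; in NP it was -1.04 on the members above background on every array and -0.58 to 0.28 with 1 array left out. No member changed direction under any of these settings. Each member has 1 probe set, so another probe set could not be tried. No paired analysis was possible because the labels give no animal or replicate numbers shared between groups. Signal at the array maximum limits 4 later genes in AF, and background limits Ctsg, Prtn3 and Camp in NP.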
